A study of Mus musculus with 9 samples.

Results

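The genes described here make, take up or consume arginine in neutrophils: the arginases Arg1 and Arg2, the inducible nitric oxide synthase Nos2, the cationic amino acid carrier Slc7a2, argininosuccinate synthase Ass1 and argininosuccinate lyase Asl. They were chosen by symbol from the 46517 genes of the deposited table, and all 6 members were found once each. RNA was sequenced from neutrophils of orthotopic transplanted (OT) mice, which are C57BL/6 mice whose pancreas was injected with luciferase-expressing tumor cells derived from KPC mice, a genetic model of pancreatic ductal adenocarcinoma (PDAC). Bone marrow (Ly6G.hi in the labels), blood and tumor-infiltrating Ly6G+ neutrophils were compared at day 27, with 3 libraries per compartment, each from pooled OT mice of an independent experiment. The sort kept live CD45+ cells that were negative for CD3, B220 and NK1.1 and positive for Ly6G and Ly6C. Every library came from tumor-bearing mice, and neutrophils of mice without tumors were not analysed here. The paper used male and female mice across its experiments and does not give the sex of those pooled here. The age of the mice is not stated in the sources used here, and pooling leaves the spread between single mice unseen.

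Arginine is the shared substrate of competing enzymes. Arginases split it into ornithine and urea, ARG1 in the cytosol and ARG2 in mitochondria, whereas NO synthases turn it into nitric oxide (NO) and citrulline. Ass1 and Asl act in sequence to rebuild arginine from citrulline, and Slc7a2 encodes CAT-2, which carries arginine into the cell. In myeloid cells of tumors this pathway is known for removing the arginine that T cells need to proliferate, and in phagocytes NO is known for killing microbes.

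In the GENCODE M21 annotation of GRCm38, Arg1 (ENSMUSG00000019987.8) lies at chr10:24915221-24927484 on the minus strand and Arg2 (ENSMUSG00000021125.6) at chr12:79130777-79156301 on the plus strand. Nos2 (ENSMUSG00000020826.6) lies at chr11:78920787-78960254 and Slc7a2 (ENSMUSG00000031596.14) at chr8:40862396-40922308, both on the plus strand. Ass1 (ENSMUSG00000076441.8) lies at chr2:31470207-31520672 on the plus strand and Asl (ENSMUSG00000025533.14) at chr5:130011258-130029247 on the minus strand. These are the spans of the whole genes, and reads were counted over exons. Arg2 overlaps Vti1b and Gm48780 on the other strand, genes that together took 3751 reads over the 9 libraries, and Slc7a2 overlaps Gm26584, which took 1 read. These overlaps are of whole spans, and overlap of exons was not computed. SMARTSeq v2 libraries do not mark strand, so strand cannot tell apart reads on any exon that such partners share.

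Among the members, the RefSeq promoter table held a window for Ass1 only, which is why it is shown. Its capitals mark a palindrome that holds ACGTG, the core of the sequence bound by hypoxia-inducible factors, on both strands. The window is at chr2:31470020-31470319 of GRCm38.p6, plus strand.
Ass1 promoter: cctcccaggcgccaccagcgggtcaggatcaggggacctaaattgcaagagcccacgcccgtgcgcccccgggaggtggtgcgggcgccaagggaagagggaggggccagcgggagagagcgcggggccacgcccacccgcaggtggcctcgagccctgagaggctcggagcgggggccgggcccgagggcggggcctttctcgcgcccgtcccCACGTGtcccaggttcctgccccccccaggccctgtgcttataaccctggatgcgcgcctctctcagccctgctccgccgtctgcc
The palindrome begins at position -36 from the RefSeq start site of this window, chr2:31470270, which lies downstream of the GENCODE M21 gene start given above. ACGTG stood in 19.6% of the 32851 promoter windows of the same length, searched on both strands. The letters TATAAA, present in 13.6% of windows, and TTCNNNGAA, present in 8.30%, were not in this window, and a match of letters is not a binding site.

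For comparison between libraries, whole reads were recovered from the deposited log2 FPKM values and divided by the authors' scaled library size, which gives RPM, the reads scaled to 1000000 reads of library. Between genes, levels are given as RPM per kb of exon. The libraries held 4580807 to 7949367 reads. Replicates came from separate experiments, and n = 3 libraries per compartment for every mean ± SD below. Intervals on reads cover counting error only. Where libraries are said not to overlap, the share of all genes that separate in the same way was not computed. Such separation is therefore not shown to be particular to a member. In bulk RNA, fewer cells of a type and less RNA per cell cannot be told apart.

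The libraries differed in more than the members. Over all genes tested, 32.4% were called higher and 20.2% lower in tumor than in blood (limma, adjusted p under 0.05). The shares were 25.2% and 18.4% in tumor against bone marrow, and 12.6% and 16.3% in blood against bone marrow. The marker counts below stand beside these shares. All 10 neutrophil markers were read in every library. Their summed level was 89381 to 99131 RPM in the bone marrow, 41089 to 43670 RPM in the blood and 11944 to 15366 RPM in the tumor. Ngp alone stood at 39104 ± 3516, 746 ± 85.0 and 2562 ± 983 RPM. Of these 10, 1 (Ngp) was called higher and 9 lower in tumor than in blood. Against bone marrow 9 were lower in tumor and Csf3r did not pass. From bone marrow to blood 7 were lower, whereas Csf3r and Cxcr2 were higher. The 10 tumor epithelium markers summed to 144 to 151 RPM in the bone marrow, 218 to 426 RPM in the blood and 2623 to 4925 RPM in the tumor. The 7 fibroblast markers reached at most 12.5 RPM in bone marrow and 5.37 RPM in blood, against 970 to 1114 RPM in tumor, and the 8 acinar markers at most 5.72 and 9.13 RPM, against 509 to 1951 RPM. The 10 macrophage markers did not follow this order, with 455 to 504 RPM in the bone marrow, 1498 to 1684 RPM in the blood and 413 to 589 RPM in the tumor. Most of their sum in blood was Csf1r (1179 ± 77.2 RPM). Of the 10 macrophage markers, 1 was called higher (C1qb) and 3 lower (Csf1r, Apoe and Cx3cr1) in tumor than in blood, with a median log2 fold change of 0.84. Against bone marrow 2 were higher (Adgre1 and Apoe) and 2 lower (Csf1r and Cx3cr1), with a median of 0.32. The tumor libraries had 87, 70 and 60 reads of C1qb and 1, 5 and 0 of Cx3cr1. Endothelial markers summed to 16.4 to 24.1, 102 to 150 and 74.5 to 118 RPM in bone marrow, blood and tumor, the blood sum being mostly Vwf (84.2 ± 21.7 RPM). Of these 6 markers 4 were called higher and 1 lower in tumor than in blood, and 5 higher than in bone marrow, Kdr having 48, 44 and 51 reads in tumor and at most 2 elsewhere. Eosinophil markers summed to 73.3 to 98.2, 125 to 167 and 203 to 271 RPM, the tumor sum being mostly Siglecf (175 ± 43.3 RPM). Of these 5 markers 1 (Il5ra) was called higher and 0 lower in tumor than in blood. Against bone marrow 2 were higher (Siglecf and Il5ra) and 2 lower (Epx and Prg2). Epx had 141, 78 and 120 reads in bone marrow and 0 in every blood and tumor library. Monocyte and dendritic markers summed to 300 to 586, 213 to 325 and 21.8 to 44.2 RPM, and lymphocyte markers to at most 34.99, 117 and 7.27 RPM.

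**Figure D1:**
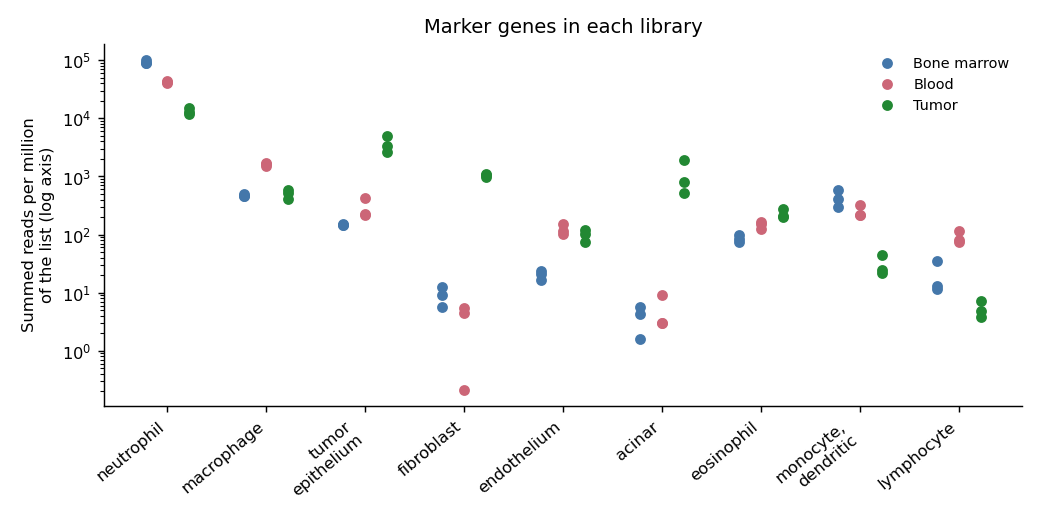
Summed RPM (log axis) of each marker list in each of the 9 libraries, coloured by compartment. Epithelial, fibroblast and acinar markers were highest in the 3 tumor libraries, whereas macrophage markers were highest in the 3 blood libraries.

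Relative to both bone marrow and blood, the tumor libraries had more Arg1, Nos2 and Slc7a2 RNA. Arg2 instead peaked in blood, and the recycling genes Ass1 and Asl were highest in bone marrow. Of the 6 members, 5 were called higher and 1 lower in tumor than in blood, where 32.4% of the 17714 genes tested were called higher and 20.2% lower (limma, adjusted p under 0.05). In tumor against bone marrow 3 members were called higher and 2 lower, where 25.2% of genes were called higher and 18.4% lower. In blood against bone marrow 3 were higher and 2 lower, where 12.6% of genes were higher and 16.3% lower. With each library centred on its median, the share of higher calls among all calls went from 61.6% to 41.1% in tumor against blood and from 57.8% to 41.2% in tumor against bone marrow, and with plain library totals to 74.0% and 74.2%. Among genes over 0 in at least 3 libraries it was 45.0% and 40.5%, and with quantile normalization 44.9% and 43.3%. In blood against bone marrow it went from 43.6% to 58.0% with median centring. The median log2 fold change over the members was 2.71 against blood and 2.84 against bone marrow, beside 0.50 and 0.29 over all genes tested. Both contrasts use the same tumor libraries, so they are not independent.

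**Figure D2:**
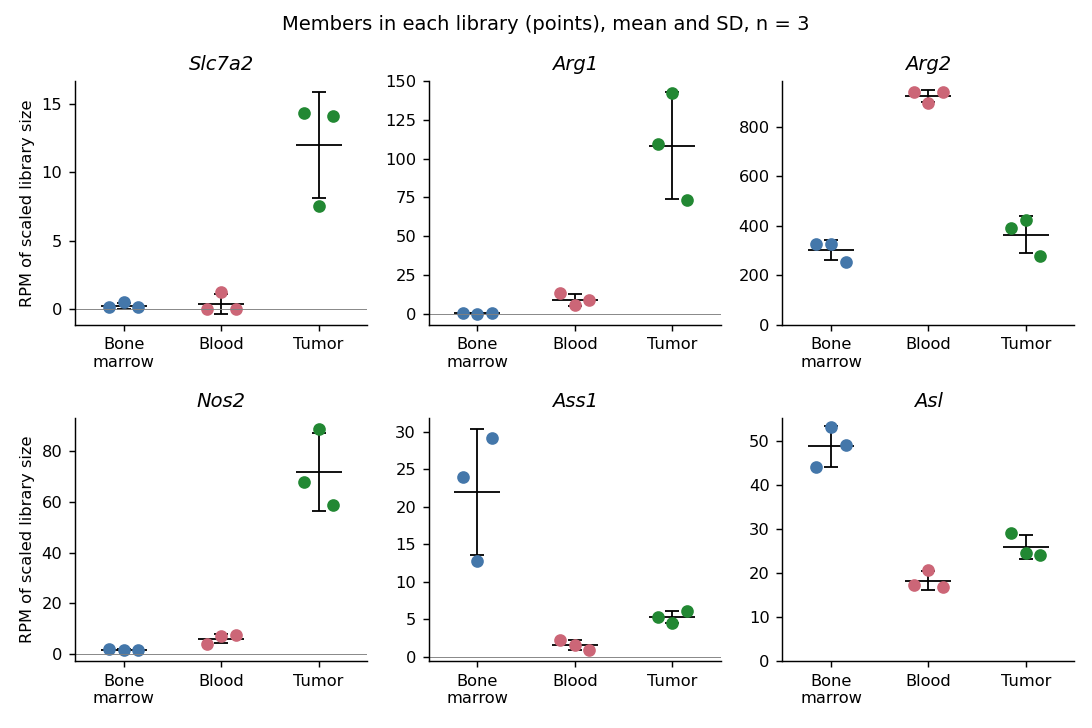
RPM of scaled library size for each member in each library (points), with the mean and SD of 3 libraries per compartment; the y axes differ between genes. Slc7a2, Arg1 and Nos2 were highest in all 3 tumor libraries, Arg2 in all 3 blood libraries, and Ass1 and Asl in all 3 bone marrow libraries.

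The arginine carrier Slc7a2 was nearly unread outside the tumor. It had 1, 3 and 1 reads in the bone marrow libraries, 0, 7 and 0 in blood and 89, 57 and 112 in tumor. The tumor libraries did not overlap with either other compartment, and the only blood library with reads was replicate 2. Mean levels were 0.277 ± 0.219 RPM in the bone marrow, 0.418 ± 0.724 in the blood and 11.99 ± 3.86 in the tumor. Pooled over libraries, tumor held 45.1 times the level of bone marrow (95% counting interval 19.1 to 140) and 24.1 times that of blood (11.6 to 60.7). On the log2 FPKM scale the difference was 5.42 against bone marrow (SE 1.36, limma adjusted p = 0.0118) and 6.60 against blood (SE 1.36, limma adjusted p = 0.00372). Blood against bone marrow did not pass (limma adjusted p = 0.576), and without blood replicate 2 it did (limma adjusted p = 0.0274), with 0 reads in the remaining blood libraries. That blood library also held Krt8, Krt19 and Epcam, epithelial genes, at 406, 234 and 98 reads, beside at most 5 of each in the other blood libraries. The part of epithelial RNA in the Slc7a2 reads was not tested.

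Arg1, the cytosolic arginase, rose at each step from bone marrow through blood to tumor. Bone marrow libraries had 4, 0 and 2 reads, blood libraries 52, 31 and 40, and tumor libraries 679, 1076 and 581. No library of one compartment overlapped with those of another. Mean levels were 0.300 ± 0.299 RPM in the bone marrow, 9.08 ± 3.83 in the blood and 108 ± 34.6 in the tumor. The pooled level in tumor was 340 times that in bone marrow (95% counting interval 156 to 929) and 12.4 times that in blood (10.4 to 15.04). Blood exceeded bone marrow by 27.4 times (12.2 to 76.0). The log2 differences in FPKM were 9.05 for tumor against bone marrow (SE 0.95, limma adjusted p = 0.000130), 3.61 for tumor against blood (limma adjusted p = 0.0122) and 5.44 for blood against bone marrow (limma adjusted p = 0.00358). The first and last rest on 6 bone marrow reads, and the constant added before the log sets part of their size.

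Arg2, the mitochondrial arginase, was the most abundant member per exon length in every compartment and had its peak in the circulation. It had 2180, 1846 and 1691 reads in the bone marrow, 3709, 5013 and 4409 in the blood and 2431, 3187 and 2210 in the tumor. Blood libraries lay above all others, whereas bone marrow and tumor libraries overlapped once scaled. Mean levels were 302 ± 41.3 RPM in the bone marrow, 926 ± 24.2 in the blood and 364 ± 75.6 in the tumor. Tumor was lower than blood by a log2 fold change of -1.37 (SE 0.17, limma adjusted p = 0.000292), and blood was higher than bone marrow by 1.62 (limma adjusted p = 0.000332). Tumor against bone marrow was 0.25 and did not pass (95% interval -0.14 to 0.65, limma adjusted p = 0.267). That difference was 0.44 without tumor replicate 3 (limma adjusted p = 0.0327), 0.71 with plain library totals (limma adjusted p = 0.00348) and -0.23 with median centring.

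Arg1 had its largest share of arginase RNA in all 3 tumor libraries. Arg1 made up 0.0644% ± 0.0595 of the summed Arg1 and Arg2 level per exon kb in the bone marrow, 0.621% ± 0.251 in the blood and 15.8% ± 1.77 in the tumor. The 3 tumor libraries lay between 14.4% and 17.8%, and the highest of the others was 0.891%. The summed arginase level was 212 ± 28.9 RPM per exon kb in the bone marrow, 652 ± 18.3 in the blood and 303 ± 67.9 in the tumor. For the share and for the sum, tumor and blood libraries did not overlap (exact two-sided permutation p = 0.1 for each, the smallest that 3 against 3 libraries allow). The length used for scaling moved the share: by reads alone the tumor value was 22.6% ± 2.32, and by the deposited FPKM, which divides by genomic span for most genes, it was 37.8% ± 3.08.

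Nos2, whose enzyme makes NO from the same arginine, was low in bone marrow and blood. Reads were 12, 8 and 10 in the bone marrow, 15, 39 and 34 in the blood and 420, 672 and 468 in the tumor. The compartments did not overlap in any pair. Mean levels were 1.57 ± 0.198 RPM in the bone marrow, 6.01 ± 1.92 in the blood and 71.8 ± 15.4 in the tumor. Tumor was 11.6 times blood (95% counting interval 9.37 to 14.6) and 45.5 times bone marrow (31.7 to 67.6). The log2 fold changes were 3.61 against blood (SE 0.35, limma adjusted p = 7.44e-05) and 5.47 against bone marrow (limma adjusted p = 1.13e-05), and 1.86 for blood against bone marrow (limma adjusted p = 0.00522). With a pseudocount of 1 FPKM the last value was 0.15 and did not pass (limma adjusted p = 0.374).

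**Figure D3:**
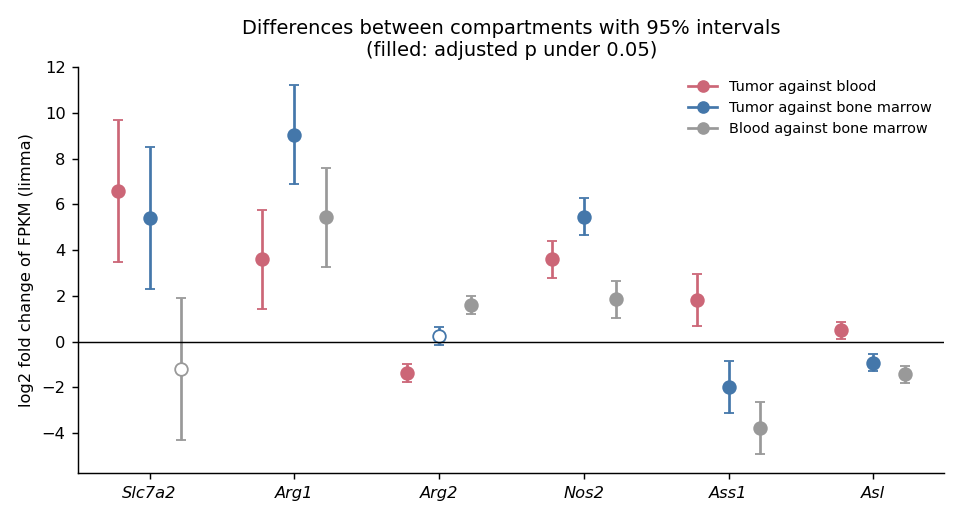
Difference in log2 FPKM between compartments for each member (limma, points) with 95% intervals; filled points passed an adjusted p of 0.05. The intervals of Slc7a2, Arg1 and Nos2 lie above 0 in both tumor contrasts, those of Arg2, Ass1 and Asl change side between contrasts, and Arg2 in tumor against bone marrow spans 0.

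The RNA of the competing enzymes stood closer to each other in tumor. Arginase RNA, as Arg1 plus Arg2 per exon kb, was 599 ± 100 times Nos2 in the bone marrow, 524 ± 214 times in the blood and 18.7 ± 2.14 times in the tumor. The tumor libraries lay between 17.0 and 21.1, and the lowest library elsewhere was 399. On the log2 scale the ratio differed by -4.75 between tumor and blood and by -5.00 between tumor and bone marrow (exact two-sided permutation p = 0.1 for each, the smallest that 3 against 3 libraries allow, and 0.133 adjusted over 12 such comparisons of ratios and sums). Blood and bone marrow differed by -0.25 (exact permutation p = 0.6). These ratios are of RNA, depend in size on the exon lengths used and do not measure enzyme activity.

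Ass1, the first enzyme of citrulline recycling, was lowest in blood. It had 160, 72 and 194 reads in the bone marrow, 9, 9 and 4 in the blood and 33, 34 and 48 in the tumor. Tumor libraries lay between the others, with no overlap. Mean levels were 21.95 ± 8.42 RPM in the bone marrow, 1.58 ± 0.713 in the blood and 5.29 ± 0.774 in the tumor. The log2 fold change was -3.79 for blood against bone marrow (SE 0.50, limma adjusted p = 0.000918), -1.97 for tumor against bone marrow (limma adjusted p = 0.0120) and 1.81 for tumor against blood (limma adjusted p = 0.0146). The last rests on 22 blood reads and did not pass with quantile normalization (0.05, limma adjusted p = 0.945), median centring (1.06, limma adjusted p = 0.0893) or pseudocounts of 1 (0.10, limma adjusted p = 0.300) and 0.1 (0.64, limma adjusted p = 0.0597).

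Asl, which releases arginine in the next step, had the same order with smaller differences. Reads were 294, 301 and 326 in the bone marrow, 68, 116 and 79 in the blood and 180, 186 and 192 in the tumor. Mean levels were 48.8 ± 4.63, 18.3 ± 2.17 and 25.9 ± 2.68 RPM, and the compartments did not overlap. Blood was lower than bone marrow by a log2 fold change of -1.42 (SE 0.16, limma adjusted p = 0.000509) and tumor lower than bone marrow by -0.91 (limma adjusted p = 0.00231). Tumor exceeded blood by 0.51 (SE 0.16, limma adjusted p = 0.0300), close to the shift of 0.50 over all genes tested. That call was lost in 10 of 21 alternatives: limma adjusted p was 0.0795 without blood replicate 1, 0.0870 without blood replicate 3 and 0.0777 without tumor replicate 1, and with median centring the difference was -0.25 (limma adjusted p = 0.257).

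The ratio of Asl to Ass1 per exon kb was 1.28 ± 0.700 in the bone marrow, 6.69 ± 3.05 in the blood and 2.49 ± 0.422 in the tumor. The exon lengths used set the size of this ratio but not its log2 differences between compartments. Blood exceeded bone marrow by 2.41 on the log2 scale with no overlap (exact permutation p = 0.1, adjusted 0.133). Tumor and blood differed by -1.34 (exact permutation p = 0.1). Tumor and bone marrow libraries overlapped (difference 1.07, exact permutation p = 0.2).

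**Figure D4:**
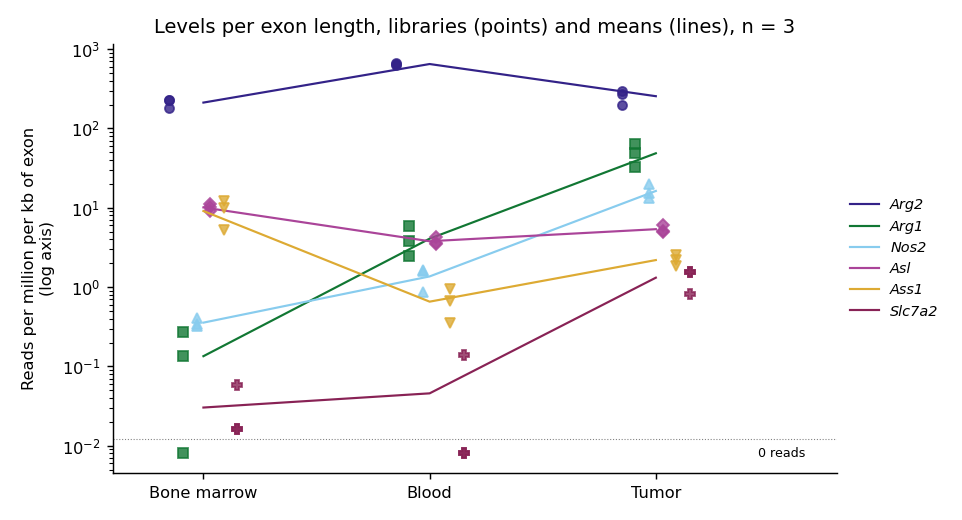
RPM per kb of exon (log axis) for each member in each library (points) and the mean of 3 libraries per compartment (lines); points below the dotted line are libraries with 0 reads. Arg2 lies above the other members throughout; Arg1 and Nos2 are low in bone marrow, and in tumor both lie above Asl and Ass1.

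Per exon kb the order of the members changed with the compartment. The order also depends on the exon lengths used: by RPM without length, Asl (18.3 ± 2.17) stood above Arg1 (9.08 ± 3.83) in blood. In bone marrow Arg2 (212 RPM per kb) stood far above Asl (10.1) and Ass1 (9.09), which overlapped, and these above Nos2 (0.356). Arg1 (0.135) and Slc7a2 (0.0303) came last there and overlapped. In blood the order was Arg2 (648), Arg1 (4.08), Asl (3.78), Nos2 (1.36), Ass1 (0.655) and Slc7a2 (0.0457), in which Arg1 overlapped with Asl and Nos2 with Ass1. In tumor it was Arg2 (255), Arg1 (48.6), Nos2 (16.3), Asl (5.37), Ass1 (2.19) and Slc7a2 (1.31), and no neighbours overlapped.

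Other cells' markers also varied among the tumor libraries. Replicate 3 had the highest sums of epithelial (4925 RPM) and acinar (1951 RPM) markers, and it had the lowest Arg1 (73.1 RPM), Arg2 (278 RPM) and Nos2 (58.9 RPM). Replicate 2 had the lowest sums of both (2623 and 509 RPM), with the highest Arg1 (142 RPM) and Nos2 (88.9 RPM) and the lowest Slc7a2 (7.54 RPM) and Ass1 (4.50 RPM). In replicates 1, 2 and 3 the macrophage markers summed to 528, 589 and 413 RPM, the endothelial markers to 102, 118 and 74.5 RPM and the eosinophil markers to 212, 271 and 203 RPM. These sums were highest in replicate 2 and lowest in replicate 3, as Arg1, Arg2 and Nos2 were. The monocyte and dendritic markers (24.8, 44.2 and 21.8 RPM) had that order too. Fibroblast (970, 1069 and 1114 RPM), neutrophil (15366, 13103 and 11944 RPM) and lymphocyte (3.87, 7.27 and 4.78 RPM) markers did not. Slc7a2 was 14.3 and 14.1 RPM in replicates 1 and 3, and Ass1 was 5.32 and 6.04 RPM. The part of epithelial, fibroblast, acinar, endothelial, macrophage and eosinophil RNA in the tumor values was not tested, and 3 libraries give no correlation.

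Around the members, other arginine carriers moved in both directions. Over all genes tested, 32.4% were called higher and 20.2% lower in tumor than in blood. Against bone marrow these shares were 25.2% and 18.4%. They stand beside the counts of this list and of every list below. Of the 6 further transport genes, 4 were called higher and 1 lower in tumor than in blood, and 3 higher and 1 lower than in bone marrow; the median log2 fold changes were 2.49 and 2.42. Slc3a2, the heavy chain of the y+L carriers, had 404, 370 and 435 reads in the bone marrow, 372, 488 and 341 in the blood and 1860, 3393 and 2637 in the tumor. It was higher by 2.07 than in blood (limma adjusted p = 3.27e-05) and by 2.48 than in bone marrow (limma adjusted p = 1.59e-05). Its light chain partner Slc7a6 was higher by 4.45 and 3.53 (limma adjusted p = 0.000655 and 0.00272). Slc7a1, the constitutive carrier CAT-1, rose from 3.73 ± 1.87 RPM in bone marrow and 2.31 ± 0.498 in blood to 17.7 ± 5.07 in tumor (limma adjusted p = 0.00807 and 0.00237). Slc38a9, the lysosomal arginine sensor of mTORC1, was lower in tumor, with 64, 33 and 49 reads beside 89 to 101 in blood (log2 fold change -1.64, limma adjusted p = 0.00646) and 156 to 181 in bone marrow (-2.05, limma adjusted p = 0.00259).

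The other NO synthases were nearly unread. Nos1 had 0 reads in all 9 libraries, and Nos3, the endothelial enzyme, had 3, 4 and 7 reads in tumor, 1 read in 1 bone marrow library and 0 in blood. Of the 4 tested genes in the list of other synthases and their regulators, 2 were called higher and 1 lower in tumor than in blood, and 1 higher and 1 lower than in bone marrow. The median log2 fold changes were 2.08 and 0.82, and with Nos3 at the bound that 3 reads over the blood libraries allow the first was 0.79. Nosip, which binds NO synthases, was lower than in blood by -0.64 (limma adjusted p = 0.0131) and than in bone marrow by -0.71 (limma adjusted p = 0.00965).

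Genes that make and recycle tetrahydrobiopterin, the cofactor without which NO synthases do not form NO, were called higher in 5 of 8 in each tumor contrast and the other 3 did not pass, with median log2 fold changes of 1.85 against blood and 1.39 against bone marrow. Spr, sepiapterin reductase, the last step of synthesis, had 26, 13 and 14 reads in the bone marrow, 5, 7 and 9 in the blood and 144, 118 and 187 in the tumor. It was higher by 3.78 than in blood (limma adjusted p = 3.78e-05) and by 2.92 than in bone marrow (limma adjusted p = 0.000168). The recycling enzymes Qdpr and Pcbd1 were higher than in blood by 2.08 and 3.98 (limma adjusted p = 0.000503 and 0.00316) and than in bone marrow by 1.44 and 6.35 (limma adjusted p = 0.00417 and 0.000325). Pcbd1 had at most 1 read per bone marrow library.

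**Figure D5:**
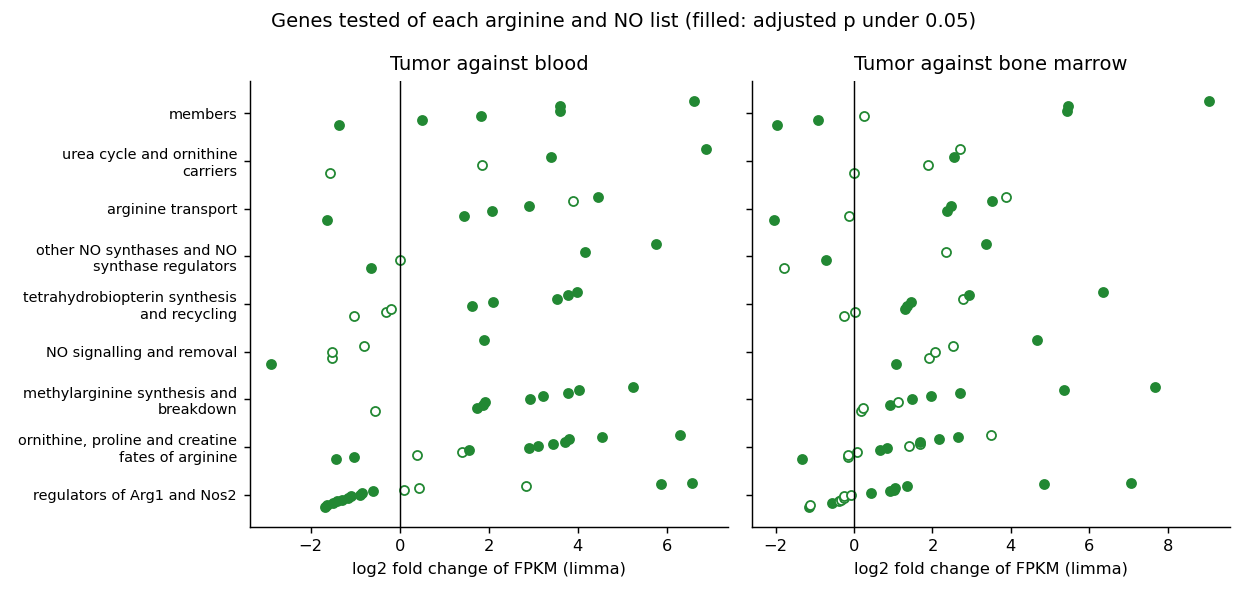
Difference in log2 FPKM (limma) of each tested gene of the members and the 8 further lists, in tumor against blood (left) and tumor against bone marrow (right); filled points passed an adjusted p of 0.05. Methylarginine and tetrahydrobiopterin genes lie mostly to the right of 0 in both panels, whereas the regulators of Arg1 and Nos2 lie mostly to the left in tumor against blood.

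Methylarginines, which inhibit NO synthases, are made by protein arginine methyltransferases and broken down by the DDAH enzymes. Of these 9 genes, 8 were called higher in tumor than in blood and 6 higher than in the bone marrow, with medians of 2.93 and 1.49. Ddah1 had 0 reads in all bone marrow libraries, 1, 4 and 0 in the blood and 52, 65 and 45 in the tumor, so tumor was at least 47.8-fold higher than the 3-read floor over the bone marrow libraries. Ddah2 was higher by 1.90 than in blood (limma adjusted p = 0.00818) and by 2.69 than in bone marrow (limma adjusted p = 0.00178). The methyltransferases Prmt2 and Prmt7 were higher than in blood by 3.21 and 4.03 (limma adjusted p = 0.00248 and 0.000194) and than in bone marrow by 5.34 and 1.96 (limma adjusted p = 0.000199 and 0.00982). Genes of synthesis and of breakdown were thus both among those called higher.

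Downstream of arginase, ornithine can become polyamines or proline. Of 12 genes for these fates and for creatine, 8 were called higher and 2 lower than in blood, and 5 higher and 1 lower than in bone marrow, with medians of 3.005 and 1.12 (0.75 with genes unread in bone marrow at their bound). Odc1, the entry to polyamines, had 36, 40 and 36 reads in the bone marrow, 30, 66 and 39 in the blood and 168, 216 and 192 in the tumor. It was higher by 1.54 than in blood (limma adjusted p = 0.000429) and by 2.16 than in bone marrow (limma adjusted p = 8.78e-05). Aldh18a1, which starts proline synthesis from glutamate, was higher by 3.43 and 2.66 (limma adjusted p = 6.37e-05 and 0.000289). Oat, which turns ornithine towards proline, had its peak in blood, as Arg2 did: 58.9 ± 1.41 RPM in the bone marrow, 190 ± 9.75 in the blood and 93.3 ± 7.38 in the tumor (limma adjusted p = 0.000126 for tumor against blood and 0.00160 for tumor against bone marrow). Aldh4a1, of proline breakdown, was lower in tumor by -1.44 and -1.32 (limma adjusted p = 0.00345 and 0.00660).

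In the urea cycle list, 2 of 4 tested genes were called higher than in blood and 1 higher than in bone marrow. Over all genes tested these shares were 32.4% and 25.2%, and the list is too small to set its counts apart from them. The medians were 2.62 and 2.22 (1.95 with Cps1 at its bound). Slc25a15, the mitochondrial ornithine carrier, had 4, 10 and 13 reads in the bone marrow, 0, 1 and 0 in the blood and 31, 58 and 95 in the tumor. It passed against blood (6.89, limma adjusted p = 0.000258) and against bone marrow (2.56, limma adjusted p = 0.0387), the second not once any 1 bone marrow or tumor library was left out (limma adjusted p = 0.0522 to 0.123). The other gene called against blood, Slc25a2, had 4, 9 and 4 reads in tumor and 1, 0 and 0 in blood (limma adjusted p = 0.0400), and its call was lost in 10 of 19 alternatives, with limma adjusted p = 0.0762 under the replicate block. It was also lost without bone marrow replicate 2, blood replicate 2 or 3, or tumor replicate 1 or 3 (limma adjusted p = 0.0512 to 0.116). Among genes that sense or remove NO, 1 of 5 tested was called higher and 1 lower than in blood, and 2 higher than in bone marrow, with medians of -1.53 and 2.05 (1.91 with unread genes at their bound). Adh5, which breaks down S-nitrosoglutathione, was higher by 1.89 and 1.08 (limma adjusted p = 5.84e-05 and 0.00137). Gucy1b3, a subunit of the NO receptor guanylyl cyclase, had 0, 1 and 0 reads in the bone marrow, 49, 62 and 60 in the blood and 7, 11 and 20 in the tumor, and was lower in tumor than in blood by -2.88 (limma adjusted p = 0.0133).

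Of 15 regulators known to act on Arg1 or Nos2, 2 were called higher and 10 lower in tumor than in blood. Over all genes tested these shares were 32.4% and 20.2%. Against bone marrow 7 were higher and 2 lower, beside 25.2% and 18.4% of all genes. The medians were -0.89 and -0.08. Il4ra and Il13ra1, receptor chains for the cytokines that induce Arg1, had their peak in blood. Il4ra stood at 418 ± 29.0 RPM in the bone marrow, 1421 ± 198 in the blood and 793 ± 147 in the tumor, and Il13ra1 at 225 ± 24.7, 1405 ± 52.4 and 462 ± 107 RPM. Each was lower in tumor than in blood (-0.85 and -1.63, limma adjusted p = 0.00244 and 0.000125) and higher than in bone marrow (0.91 and 1.02, limma adjusted p = 0.00208 and 0.00183). Ifngr2, a chain of the receptor for interferon-gamma, which induces Nos2, was lower in tumor than in blood by -1.69 and than in bone marrow by -1.15 (limma adjusted p = 4.15e-05 and 0.000357). Stat3 was lower by -1.42 and -0.57 (limma adjusted p = 4.46e-05 and 0.00600). The 2 regulators called higher in both contrasts were Epas1, which encodes HIF-2alpha, and Pparg. Epas1 had 2, 0 and 1 reads in bone marrow, 0, 6 and 3 in blood and 101, 127 and 153 in tumor, and was higher by 5.86 and 7.05 (limma adjusted p = 0.00661 and 0.00324). Pparg had 6, 5 and 12 reads in bone marrow, 0, 14 and 2 in blood and 173, 211 and 373 in tumor, and was higher by 6.57 and 4.83 (limma adjusted p = 0.00375 and 0.0193). Without bone marrow replicate 1 or 2 or tumor replicate 3, Pparg did not pass against bone marrow (limma adjusted p = 0.0558 to 0.0588). Hif1a, which encodes HIF-1alpha, exceeded its bone marrow level in tumor by 1.05 (limma adjusted p = 0.00204). Against blood it did not pass (0.43, limma adjusted p = 0.0809), but it did without blood replicate 3 (0.56, limma adjusted p = 0.0457) or tumor replicate 3 (0.61, limma adjusted p = 0.0122). The tumor libraries also held the epithelial, fibroblast, acinar and endothelial markers given above. The part of those cells' RNA in the tumor values of the 8 lists was not tested.

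The genes whose log2 FPKM was most like each member's over the 9 libraries were found among 10616 genes with a mean of at least 20 reads. The libraries fall into 3 compartments, so many genes reach a high Pearson's r, which is given as a description. Nos2 was most like P4ha1 (0.994), a collagen prolyl hydroxylase, Ski (0.993) and Errfi1 (0.993). Arg1 was most like Eif1a (0.992), Filip1l (0.990) and Ptrf (0.987). Arg2 was most like Trim30a (0.995), Swt1 (0.993) and Dennd4a (0.993). Slc7a2 was most like Iigp1 (0.995), an interferon-induced GTPase, Enpp1 (0.994) and Sh2d4a (0.992). Ass1 was most like H2afx (0.981), a histone H2A variant, Fancg (0.977) and Psmc2 (0.977). Asl was most like Inpp5j (0.993), Plekha2 (0.989) and Fcnb (0.988), the ficolin of immature neutrophils.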

How the data were processed

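RNA of sorted OT neutrophils was sequenced by the authors after SMARTSeq v2 amplification, mapped with STAR 2.5.2b to GRCm38 and counted with featureCounts 1.5.0 on GENCODE M7 genes. The deposited values are log2 FPKM, in which the authors added 0.25 reads and scaled the library sizes, and the length was the genomic span for 84.5% of the 46005 identifiers found in GENCODE M21. Whole reads were recovered from these values for 46517 of 46517 genes (tolerance 1e-05), with 4580807 to 7949367 reads per library. PCR duplicates were not removed. Of these, 17714 that reached 5 reads in 1 or more libraries entered a linear model of log2 FPKM (limma 3.58.1 under R 4.3.3; eBayes with trend, 1 coefficient per compartment, all 9 libraries), with Benjamini-Hochberg adjustment over all of them and a threshold of 0.05; the added constant sets part of the fold change of genes with few reads, so pooled read ratios are given beside it. The fit and the recovery were tested on simulated data. Counting intervals are exact binomial (95%). Ratios were compared by exact two-sided permutation tests.

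The members and lists were chosen with earlier results of these data known. Per list, up to 4 genes are named: those called in both tumor contrasts first, then in either, by adjusted p, then by abundance. A gene that this rule selects is not reported here by name. The neutrophil, macrophage and eosinophil genes shown singly, Nos1, Epas1, Pparg, Hif1a, Kdr, Vwf and the epithelial genes of blood replicate 2 were chosen after their values were seen. Genes like a member are the 3 with the highest r. Alternatives were filters, pseudocounts, scalings, variance models, limma-voom on recovered reads, the replicate block, pairs of compartments alone and each library left out.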

Additional observations from a re-analysis of the deposited data

How the results depend on the processing

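Of the 6 members, 6, 5 and 5 were called in tumor against blood, tumor against bone marrow and blood against bone marrow, and with the replicate number as a block 5, 5 and 5, Asl being lost against blood (adjusted p = 0.0506). Same-numbered libraries deviated from their compartment means with correlations of -0.1 to 0.0236, and the main model did not pair them. The paper describes the compartments as taken from the same mice, so low correlations do not show that the libraries were independent. Among genes over 0 on the log2 FPKM scale in at least 3 libraries, Slc7a2 and Ass1 were not tested, 3 of the 4 others were called in tumor against bone marrow, and over all genes 2194 were called higher in tumor than in blood, 1745 higher in tumor than in bone marrow and 1841 lower in blood than in bone marrow; fewer genes were tested there. With median centring 5803 genes were called lower in tumor than in blood and 4946 lower than in bone marrow, and with plain library totals 2110 were lower than in bone marrow, because these scalings move the median log2 fold change, which was 0.50 and 0.29, to -0.25 and -0.19, and to 0.89 and 0.72. Under median centring the sign also turned for Asl (-0.25) and Hif1a (-0.32) in tumor against blood, Arg2 in tumor against bone marrow (-0.23) and Nosip in blood against bone marrow (0.20). In blood against bone marrow, Slc7a2 turned to 0.00331 and 0.0267 with pseudocounts of 1 and 0.1. With single libraries left out, Nosip ranged there from -0.141 to 0.0389 (without blood replicate 1) and Aldh4a1 from -0.0267 (without blood replicate 2) to 0.213. With a pseudocount of 1, which is above the FPKM of Slc7a2 and Ass1 in every library, the log2 fold changes in tumor against blood shrank to 2.47 for Arg1, 1.28 for Nos2 and 0.25 for Slc7a2, and all 3 passed. Arg1, Nos2 and Slc7a2 kept their direction and their call in both tumor contrasts under every alternative in which they were tested. Of the further genes named against bone marrow, Oat (0.18), Hif1a (0.57), Il13ra1 (0.54), Il4ra (0.43) and Slc25a15 (2.08) did not pass with median centring, Slc7a1 (1.24), Pparg (3.40) and Gucy1b3 (2.22) with quantile normalization, and Stat3 (-0.12), Nosip (-0.26) and Aldh4a1 (-0.87) with plain library totals; against blood, Hif1a passed with quantile normalization (0.62), plain library totals (0.88) and limma-voom (0.42), Ddah2 (1.153) did not pass with median centring, Il4ra (-0.31) with quantile normalization and Nosip (-0.19) with plain library totals, and apart from Hif1a these kept their direction. Depth limits Slc7a2 in bone marrow and blood, Arg1 in bone marrow and Ass1 in blood, each under 10 reads per library.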
